A study of Mus musculus with 2 samples.

Results

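Gene expression of p53 and its direct targets was examined in 2 rhabdoid tumors (RT) of the mouse by bulk RNA-seq. The genes were chosen by name and comprised 10 of the 55416 genes in the counts table, namely Trp53, Cdkn1a, Mdm2, Mdm4, Bax, Bbc3, Ccng1, Zmat3, Phlda3 and Trp53inp1. Each of the 10 names matched 1 Ensembl ID, and all 10 were among the 21977 genes with 10 or more counts over both libraries.

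RT are aggressive tumors of early life in which Smarcb1, which encodes a component of the SWI/SNF chromatin remodeler, is usually lost. Both tumors came from Dppa3-cre::Smarcb1 Fl/+ mice on a C57BL/6 background, in which 1 Smarcb1 allele was floxed and Cre was driven by Dppa3, which is active in primordial germ cells. According to the labels, 1 tumor was intracranial (trigeminal nerve) and 1 was extracranial (facial, maxillar), and both were classified as MYC. Age and sex were not given, and Cre, the floxed allele and the background strain were common to both. Each tumor gave 1 library, so there were no replicates, no normal tissue and no comparison of locations beyond these 2 libraries, and every interval below covers counting error only.

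p53, the protein product of Trp53, is a transcription factor that responds to DNA damage, oncogene activity and other stress. In unstressed cells it is kept low by Mdm2, a ubiquitin ligase that marks it for degradation, and by the related Mdm4, which binds and blocks it. Because p53 is controlled mainly at the level of protein, the amount of Trp53 mRNA is not a measure of its activity, and the mRNAs of its targets are commonly read instead. These targets lead to cell cycle arrest (Cdkn1a, which encodes p21), to apoptosis (Bax and Bbc3), and to feedback on p53 itself (Mdm2, Ccng1).

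p53 binds DNA at the p53 response element, which consists of 2 decamers of related sequence. Promoter windows of RefSeq (build GRCm38.p6, 250 bases before to 50 after a start site) were listed for 8 of the 10 genes, in 12 windows. Zmat3 and Trp53inp1 had no entry. The windows were searched on the strand of the gene, which for this palindromic element covers both strands, for 2 decamers without a spacer whose C and G core bases were intact. With at most 3 mismatches at the other positions, 4 of the 12 windows held a match, against 453 of all 32851 windows (1.38%). With at most 1 mismatch the count was 2 of 12, in Cdkn1a and Ccng1, against 22 of 32851 (0.067%). For the other p53 targets described below, 5 of 28 windows held a match with at most 3 mismatches. With at most 1 mismatch it was 1 of 28, in Rps27l. These genes were listed as p53 and its known targets, so the shares are no test of them. All 4 matches are shown, whatever the level or ratio of their genes. They lie at the most abundant target (Cdkn1a) and at a target that differed little between the tumors (Ccng1). The other 2 lie at genes that were higher in the library labelled extracranial (Trp53 and Bbc3). The 20 bases of the element are in capitals.
Cdkn1a (chr17:29090908-29090967, plus strand, 1 mismatch): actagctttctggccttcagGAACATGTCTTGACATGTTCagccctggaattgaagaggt
Ccng1 (chr11:40755442-40755501, minus strand, 1 mismatch): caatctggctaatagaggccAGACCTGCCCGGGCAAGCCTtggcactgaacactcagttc
Bbc3 (chr7:16309466-16309525, plus strand, 3 mismatches): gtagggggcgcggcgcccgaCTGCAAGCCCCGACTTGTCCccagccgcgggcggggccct
Trp53 (chr11:69580264-69580323, plus strand, 3 mismatches): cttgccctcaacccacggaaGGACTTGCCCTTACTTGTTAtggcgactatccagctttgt
The elements began 51 bases before an upstream start site of Cdkn1a and 195, 97 and 75 bases before a start site of Ccng1, Bbc3 and Trp53. For Cdkn1a, this was 2841 bases before the second, downstream start site, whose own window held no match. Bax, Mdm2, Mdm4 and Phlda3 had no match in these windows. A match is a description of the letters and not a measured binding site, and the build is older than GRCm39, on which the reads were counted.

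The libraries held 34545846 (intracranial) and 26915696 (extracranial) counts, and 3 counts, taken as the floor, corresponded to 0.0863 and 0.112 CPM (counts scaled to the size of the library). Smarcb1, the targeted gene, was measured at 365 and 530 counts, which is 10.5 and 19.8 CPM. Without normal tissue the size of its loss could not be measured. The libraries differed strongly in markers of other cell types. The 10 keratinocyte markers summed to 21641 CPM in the intracranial and 6.80 CPM in the extracranial library, where 4 of 10, among them Krt5, were at 0. For 8 markers of glandular epithelium the sums were 2635 and 0.673 CPM. For 10 macrophage markers they were 5974 and 13370 CPM, with none at 0, and 7 were called higher in the extracranial and 1 (Cd163, 3507 and 480 counts) in the intracranial library. The 8 markers of Schwann cells, the glia of peripheral nerve, were mixed, with sums of 239.2 and 249.3 CPM, 2 called higher in the extracranial and 4 in the intracranial library, and Sox10 at 43 and 0 counts. Tissue of epithelial type was thus marked in the library labelled trigeminal nerve and nearly unmarked in the library labelled facial, and a difference in the tissue taken and an exchange of labels cannot be told apart. All directions below rest on the labels as given. In bulk tissue, fewer cells of a type and less RNA per cell cannot be told apart, and the part of these tissues in the values below was not tested.

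p53 and its targets were detected well above the floor in both tumors, and their levels spanned more than an order of magnitude. Comparisons between genes were made per kilobase of summed exon length (CPM per kilobase). Cdkn1a was the highest of the 10 in both, at 91.1 CPM per kilobase in each, and Zmat3, an RNA-binding zinc finger protein, was the lowest at 2.67 (intracranial) and 2.08 (extracranial). Among 16543 protein-coding genes above the floor in either library, Cdkn1a lay at percentile 97.3 in both and Zmat3 at percentiles 45.2 and 43.2.

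The order of the genes was almost the same in both libraries. From the top, the library labelled intracranial had Cdkn1a, Phlda3 (49.2), Bax (41.7), Ccng1 (37.4), Trp53 (17.4), Mdm2 (16.1), Bbc3 (8.40), Mdm4 (8.12), Trp53inp1 (6.73) and Zmat3, all in CPM per kilobase. Of these neighbours, only Bbc3 and Mdm4 had overlapping counting intervals. In the other library Bax (56.5) came before Phlda3 (52.7), with overlapping intervals, and the remaining order was the same, from Ccng1 (36.7) through Trp53 (23.3), Mdm2 (19.3), Bbc3 (11.2), Mdm4 (5.91) and Trp53inp1 (4.96) to Zmat3. Exon lengths summed over all isoforms overstate the length of the mRNA in use. With the length of the longest principal transcript instead, Cdkn1a stayed first and Zmat3 last in both, while Trp53 moved from place 5 to place 4, ahead of Ccng1, and Bax took place 2 in both.

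**Figure D1:**
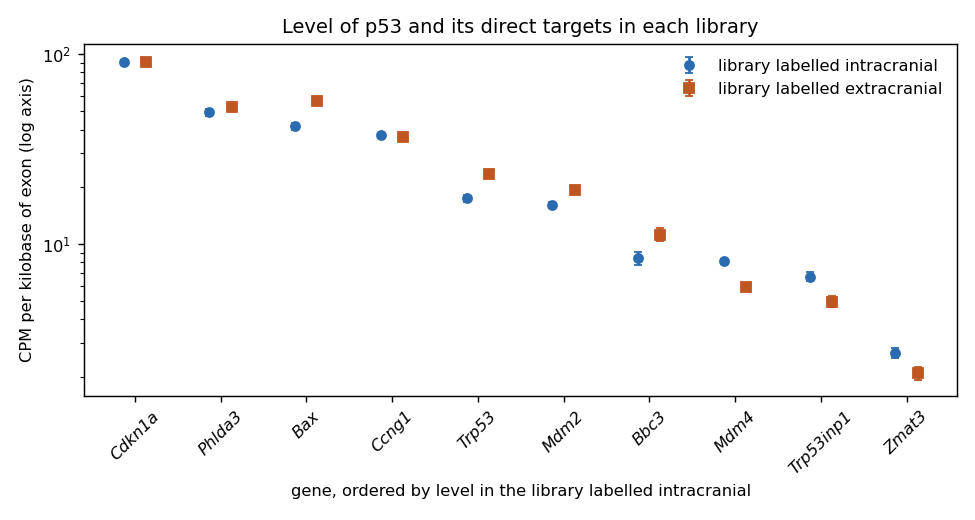
Level of the 10 genes in CPM per kilobase of summed exon length (vertical log axis), with the library labelled intracranial as circles, the library labelled extracranial as squares, and 95% counting intervals as bars. Cdkn1a sits at 91.1 in both libraries, and Bax, Trp53, Mdm2 and Bbc3 sit higher, Mdm4, Trp53inp1 and Zmat3 lower, in the library labelled extracranial.

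Between the libraries, none of the 10 genes differed by 2-fold. The ratio was taken as extracranial over intracranial, and a call required that its 95% interval lie entirely beyond 2-fold. By this rule 0 of 10 were called, against 15.6% of all genes tested (5.86% higher in the extracranial and 9.77% higher in the intracranial library). Beyond 4-fold the count was also 0 of 10, against 7.19% (1.78% and 5.41%). Such a call compares these libraries and not the locations, because a single library at each left no replicates for a quasi-likelihood fit in edgeR. When replicate spread was instead assumed (a biological coefficient of variation of 0.4, no measurement of these tumors), the exact test of edgeR at a Benjamini-Hochberg threshold of 0.05 also called 0 of 10, against 6.66% of all genes tested. With so wide a spread and 1 library each, ratios as small as those of the 10 genes could not be called by that test. The whole interval lay inside 2-fold for 10 of 10 genes. The same held for 53.8% of all genes tested, and for 84.6% of the 9131 genes that had 1000 or more counts over both libraries, as the 10 genes all did, so this share is not particular to p53 targets. All 10 ratios were within 1.5-fold, as were 75.8% of those 9131 genes. The median log2 ratio of the 10 genes was 0.05, against -0.04 for all genes tested and 0.03 for those with 1000 or more counts.

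Inside 2-fold the genes did separate. For 8 of 10 genes an equal ratio lay outside the interval, with the extracranial library higher in 5 and the intracranial library higher in 3. This count depended on the scaling: with total counts it was 7, without Phlda3, and with library totals that leave out genes beyond 16-fold it was 9, without Phlda3 and with Cdkn1a and Ccng1 lower in the extracranial library. Over all genes tested, an equal ratio lay outside the interval for 61.4%, with 29.2% higher in the extracranial and 32.2% in the intracranial library. Of the 9131 genes with 1000 or more counts, 3798 were higher in the extracranial and 3213 in the intracranial library in this way. A difference beyond counting error was thus common in this pair of libraries, and 8 of 10 was not particular to p53 targets. Log2 ratios of the 10 genes ran from -0.46 to 0.44, while the middle 90% of genes with 1000 or more counts ran from -1.39 to 1.17.

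**Figure D2:**
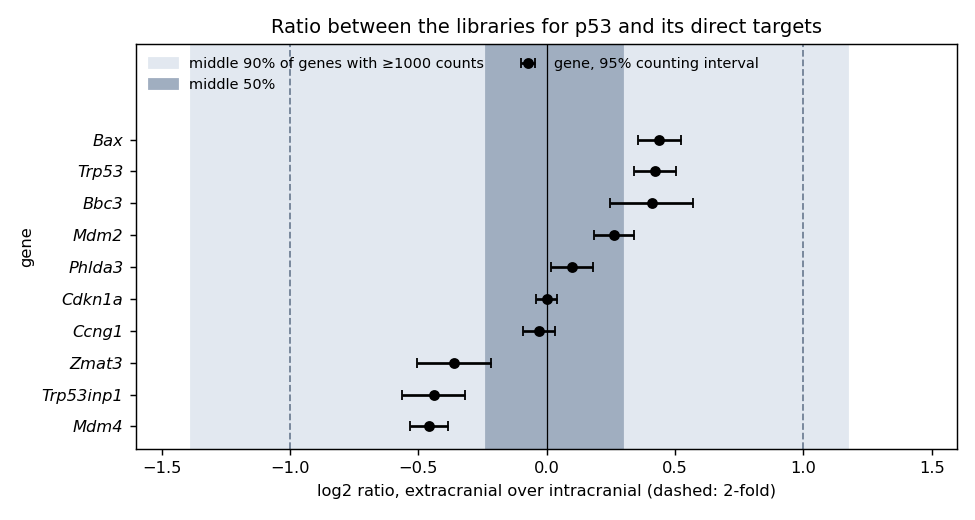
Log2 ratio, extracranial over intracranial, of the 10 genes (points) with 95% counting intervals (bars), the 2-fold limits (dashed lines), and the middle 50% and middle 90% of genes with 1000 or more counts (dark and light bands). All 10 intervals lie between the dashed lines, from Mdm4 at -0.46 to Bax at 0.44.

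Trp53 (ENSMUSG00000059552, chromosome 11) had 2441 (intracranial) and 2518 (extracranial) counts. These are 70.3 CPM (95% Clopper-Pearson interval 67.5 to 73.1) and 94.1 CPM (90.5 to 97.8), so the intervals did not overlap. The log2 ratio was 0.42 (0.34 to 0.50), or 1.34-fold higher in the extracranial library. Of the genes with 1000 or more counts, 82.1% had a lower log2 ratio than Trp53. A processed copy, Trp53-ps, had 49 and 62 counts, which is 2.01% and 2.46% of those of its parent, so reads assigned to the copy could alter the level of Trp53 only slightly.

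The regulators of p53 stood on either side of an equal ratio. Mdm2 (ENSMUSG00000020184), the ubiquitin ligase and itself a p53 target, had 2839 and 2623 counts, which is 81.7 CPM (78.7 to 84.8) and 98.0 CPM (94.3 to 101.8). Its log2 ratio was 0.26 (0.19 to 0.34). Mdm4 (ENSMUSG00000054387), which lacks appreciable ligase activity of its own, had 4177 and 2342 counts, or 120.2 CPM (116.6 to 123.9) and 87.5 CPM (84.0 to 91.1). With a log2 ratio of -0.46 (-0.53 to -0.38), it was the gene of the 10 that was lower in the extracranial library by the most. The processed copy Mdm4-ps had 417 and 239 counts, 9.98% and 10.2% of Mdm4, and adding them to Mdm4 gave a log2 ratio of -0.45.

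A ratio of 2 genes inside a library does not depend on how the libraries are scaled. Per kilobase, Mdm2 was 1.98 times Mdm4 in the intracranial and 3.26 times Mdm4 in the extracranial library. The log2 difference between the libraries was 0.72 (95% Woolf interval 0.61 to 0.83). Relative to Trp53, Mdm4 was at 0.468 and 0.254, a log2 difference of -0.88 (-0.99 to -0.77), whereas Mdm2 was at 0.926 and 0.829, a difference of -0.16 (-0.27 to -0.05). Mdm4 was thus lower against both of its partners in the library labelled extracranial. These intervals also cover counting error only.

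Cdkn1a (ENSMUSG00000023067, chromosome 17), the cyclin-dependent kinase inhibitor p21 and the best known mediator of arrest by p53, was the most strongly expressed of the 10. Its counts were 11248 (intracranial) and 8660 (extracranial), or 323.7 CPM (317.8 to 329.7) and 323.6 CPM (316.8 to 330.5). The log2 ratio was 0.00 (-0.04 to 0.04), and -0.09 (-0.13 to -0.05) with library totals that leave out genes beyond 16-fold. Relative to Trp53, Cdkn1a was lower in the extracranial library, at 3.92 against 5.25 per kilobase and a log2 difference of -0.42 (-0.51 to -0.33). Most genes with 1000 or more counts were also lower against Trp53. Its paralog Cdkn1b, the inhibitor p27, had 69.0 and 51.1 CPM, so that Cdkn1a was 6.01 and 8.11 times Cdkn1b per kilobase.

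Ccng1 (ENSMUSG00000020326), an atypical cyclin that takes part in feedback on p53, was measured at 4570 and 3447 counts, or 131.5 CPM (127.7 to 135.4) and 128.8 CPM (124.5 to 133.2), with a log2 ratio of -0.03 (-0.09 to 0.03), or -0.12 (-0.18 to -0.06) under the same other scaling. With TMM, the scaling used throughout unless stated, Cdkn1a and Ccng1 were the 2 genes whose interval held an equal ratio.

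The 2 apoptosis genes were both higher in the library labelled extracranial, and by nearly the same amount as Trp53. Bax (ENSMUSG00000003873), which forms pores in the outer mitochondrial membrane, had 2281 and 2381 counts, which is 65.6 CPM (63.0 to 68.4) and 89.0 CPM (85.4 to 92.6). Its log2 ratio of 0.44 (0.36 to 0.52) was the highest of the 10. Bbc3 (ENSMUSG00000002083), the BH3-only protein PUMA, had the fewest counts, with 620 and 634, or 17.8 CPM (16.5 to 19.3) and 23.7 CPM (21.9 to 25.6), and a log2 ratio of 0.41 (0.25 to 0.57). Relative to Trp53, the log2 difference between the libraries was 0.02 (-0.10 to 0.13) for Bax and -0.01 (-0.19 to 0.17) for Bbc3. Counting error thus leaves room for a difference from Trp53 of at most 0.13 on the log2 scale for Bax and 0.19 for Bbc3 in this pair of tumors.

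Set against the antiapoptotic genes, Bax was 11.5 and 12.9 times Bcl2 per kilobase (log2 difference 0.16, 0.01 to 0.31) and 2.63 and 3.48 times Bcl2l1, which encodes BCL-XL (0.40, 0.29 to 0.52). Across the BCL2 family list of 12 genes, 11 could be tested, and, against 15.6% of all genes tested, 1 was called, Bcl2l11. It encodes the BH3-only protein BIM and was measured at 669 and 1236 counts (log2 ratio 1.26, 1.13 to 1.40). The median of the list was 0.22. Bmf, another BH3-only gene, was at 512 and 762 counts (0.95, 0.79 to 1.11), which was not called, and Hrk was near the floor with 2 and 5 counts. The interval lay above an equal ratio for 7 genes of the list and below it for 2. Over all genes tested these shares were 29.2% and 32.2%. The 2 were Bok, at 276 and 119 counts (-0.84, -1.16 to -0.52), and Bcl2l2, at 1631 and 869 (-0.53, -0.65 to -0.41). Mcl1 was the most abundant by CPM, at 362.3 and 379.5.

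Of the remaining targets, Phlda3 was nearly level and the other 2 were lower in the library labelled extracranial. Phlda3 (ENSMUSG00000041801), a pleckstrin homology domain protein that restrains Akt, had 2666 and 2198 counts, or 76.7 CPM (73.8 to 79.7) and 82.1 CPM (78.7 to 85.6), with a log2 ratio of 0.10 (0.02 to 0.18), which became 0.01 (-0.07 to 0.09) without genes beyond 16-fold in the totals. Trp53inp1 (ENSMUSG00000028211), a nuclear protein that acts with p53 in stress and in autophagy, had 1514 and 859 counts, or 43.6 CPM (41.4 to 45.8) and 32.1 CPM (30.0 to 34.3). Its log2 ratio was -0.44 (-0.56 to -0.32). Zmat3 (ENSMUSG00000027663) had 1060 and 636 counts, or 30.5 CPM (28.7 to 32.4) and 23.8 CPM (22.0 to 25.7), with a log2 ratio of -0.36 (-0.50 to -0.22).

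The targets thus did not share a common shift relative to Trp53. Bax and Bbc3 held their ratio to Trp53 within counting error. Mdm2, Phlda3, Cdkn1a and Ccng1 were lower against it in the library labelled extracranial (log2 differences -0.16, -0.32, -0.42 and -0.45). Zmat3, Trp53inp1 and Mdm4 were lower still (-0.78, -0.86 and -0.88). Being lower against Trp53 was common, since 82.1% of genes with 1000 or more counts had a lower log2 ratio than Trp53.

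The 3 genes that were lower in the library labelled extracranial were also the 3 with the longest summed exons, Trp53inp1 with 6475, Zmat3 with 11435 and Mdm4 with 14798 bases, whereas Bax has 1576 and Bbc3 2124. This was looked at after the ratios were known. Across the 10 genes, Spearman's rho of the log2 ratio with exon length was -0.67, and across 9111 genes with 1000 or more counts and a length it was -0.07; the genes share the same 2 libraries and are not independent. When those genes were split by length into 4 groups of equal size, the median log2 ratio was -0.03 in the longest group (from 6850 bases) and 0.06 in the shortest. The part of RNA length or integrity in their ratios was not tested.

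**Figure D3:**
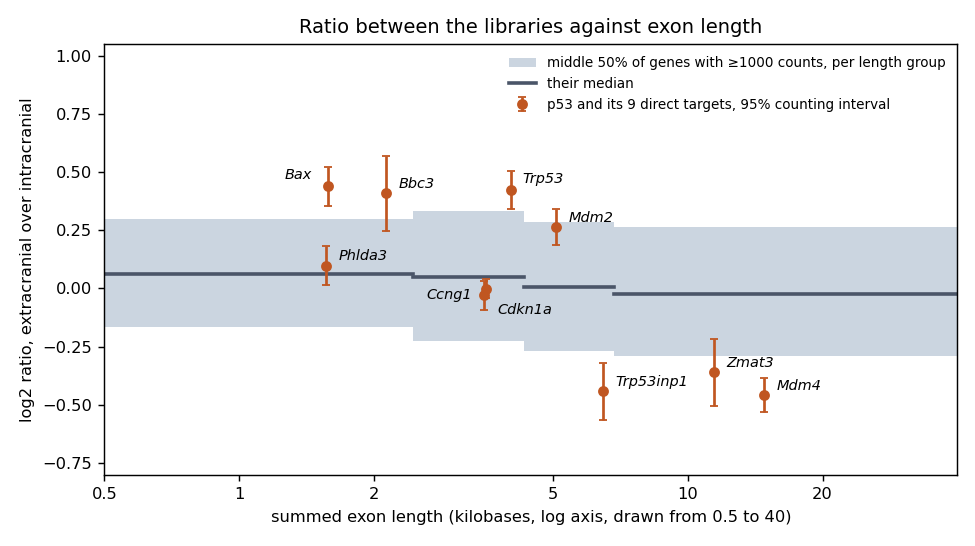
Log2 ratio, extracranial over intracranial, against summed exon length in kilobases (horizontal log axis), for the 10 genes (points, 95% counting intervals as bars), with the median (line) and middle 50% (band) of genes with 1000 or more counts in each of 4 length groups. The points of the 3 longest genes lie at -0.36 to -0.46, below the band of their length groups, while the medians of the groups run only from 0.06 to -0.03.

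To see how far other genes of the pathway followed, 29 further p53 targets were compared, and all 29 could be tested. Of these, 24 were not called, 1 was called higher in the extracranial and 4 were called higher in the intracranial library, which is 5 of 29 and close to the background of 15.6%, and for 21 the whole interval lay inside 2-fold. Their median log2 ratio was -0.01, and its sign changed with the scaling (-0.10 to 0.03 over the settings). The gene called higher in the extracranial library was Sesn1, a sestrin that restrains mTORC1, with 2077 and 3776 counts (59.8 and 141.1 CPM; log2 ratio 1.24, 1.16 to 1.32). Its relative Sesn2 had 779 and 497 counts (-0.27, -0.44 to -0.11).

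The 4 targets called the other way included the widest differences of the pathway. Perp, a tetraspan protein of desmosomes in stratified epithelium, had 17912 counts in the intracranial and 3 in the extracranial library. The ratio was 4598-fold (95% interval 1573-fold to 22299-fold). Sfn, which encodes 14-3-3 sigma and is abundant in keratinocytes, had 11618 and 66 counts, 334.4 and 2.47 CPM, and was 135.6-fold higher. Ddit4, an mTORC1 inhibitor also induced by hypoxia and glucocorticoids, had 3017 and 370 counts (6.28-fold higher), and Plk2, a polo-like kinase, had 5249 and 1189 (3.40-fold higher). Perp and Sfn moved with the keratinocyte markers given above, 21641 and 6.80 CPM, and with Trp63. The part of epithelium in these 4 differences was not tested. Without these 2 genes the median of the list was 0.00.

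Of the targets with roles in DNA repair and nucleotide supply, some held an equal ratio in their interval and others lay on either side of it. Xpc had 535 and 419 counts (log2 ratio 0.02, -0.16 to 0.21), Ddb2 194 and 156 (0.06, -0.25 to 0.37) and Rrm2b 364 and 267 (-0.07, -0.30 to 0.16). Ercc5, an endonuclease of nucleotide excision repair, was at 934 and 547 (-0.40, -0.55 to -0.24), and Polk, a translesion polymerase, at 444 and 450 (0.40, 0.20 to 0.59). Among death receptors, Fas had 198 and 153 counts (0.00, -0.31 to 0.32) and Tnfrsf10b 377 and 333 (0.20, -0.02 to 0.41). Pmaip1, which encodes the BH3-only protein NOXA, had 110 and 164 counts and a log2 ratio of 0.95 (0.60 to 1.31), which was not called. Eda2r, a receptor of ectodysplasin, was at 1213 and 575 counts (-0.70, -0.85 to -0.56). Trp53cor1, the long noncoding lincRNA-p21 encoded beside Cdkn1a, had 18 and 10 counts, too few for a statement on its ratio (-0.47, -1.75 to 0.72). Rps27l shares sequence with Rps27 and Rps27rt, and its 4048 and 2846 counts are uncertain for this reason.

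**Figure D4:**
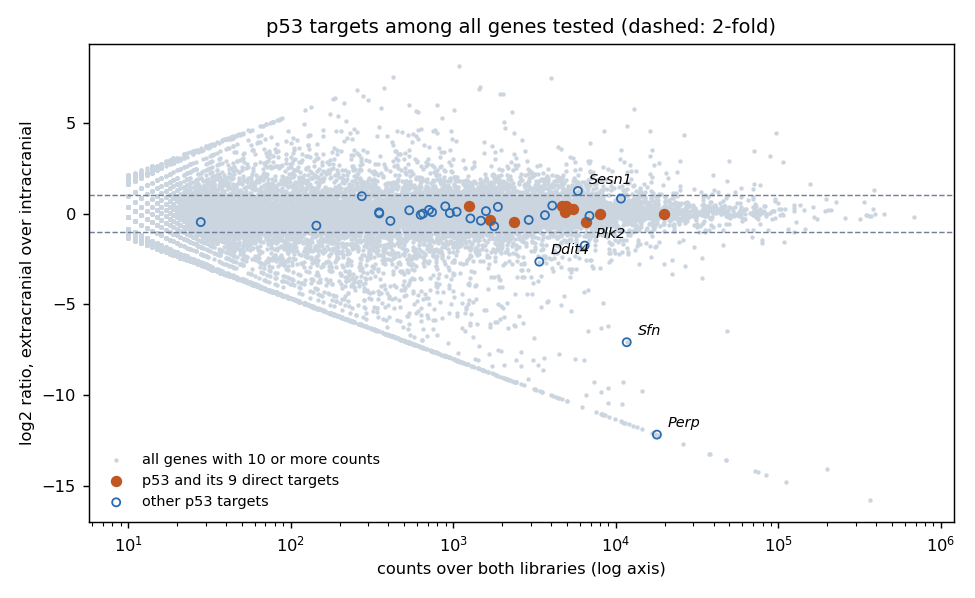
Log2 ratio, extracranial over intracranial, against counts over both libraries (horizontal log axis) for all 21977 genes tested (grey), the 10 genes (filled orange) and the 29 other p53 targets (open blue), with 2-fold limits dashed. The 10 genes lie between the dashed lines, and Perp and Sfn lie far below them; the sloping lower edge is formed by genes with 3 or fewer counts in the extracranial library, set to the floor.

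The paralogs of the 10 genes varied more. Of 8 paralogs, 3 were called higher in the library labelled intracranial, 1 higher in the other and 4 were not called. Over all genes tested, 15.6% were called. The median log2 ratio of the paralogs was -0.46. Trp63, the p53 relative that maintains basal epithelial cells, had 1284 and 0 counts. Set against the floor of 3 counts in 1 library, it was 330-fold higher (lower bound 268-fold). In the same way Trp73, the third family member, had 52 and 0 counts and was 13.3-fold higher (lower bound 10.5-fold). Phlda2 had 46 and 0 and was 11.8-fold higher (lower bound 9.22-fold). Trp63 thus reached 37.0 CPM in the library with epithelial markers and was not detected at this depth in the library where 4 of 10 keratinocyte markers were at 0. Phlda1 was higher in the library labelled extracranial, at 372 and 956 counts (log2 ratio 1.74, 1.56 to 1.92). Ccng2 (0.10, -0.04 to 0.23) and Trp53inp2 (-0.49, -0.61 to -0.37) had ratios near those of Ccng1 and Trp53inp1.

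Upstream of p53, 16 activators were compared and 0 of 16 were called, against 15.6% of all genes tested. Their median log2 ratio was 0.08 and changed sign with the scaling (-0.01 to 0.12). Cdkn2a, which encodes both p16 and the Mdm2 inhibitor p19Arf, had 1018 and 1198 counts, or 29.3 and 44.8 CPM (log2 ratio 0.61, 0.49 to 0.73). Counts per gene do not separate its 2 products. Of the damage kinases, Atm was at 470 and 257 counts (-0.49, -0.72 to -0.27), Atr at 538 and 447 (0.11, -0.07 to 0.29), Chek1 at 268 and 205 (-0.01, -0.28 to 0.26) and Chek2 at 193 and 236 (0.67, 0.39 to 0.95). Prkdc, another of these kinases, was at 715 and 331 (-0.73, -0.93 to -0.54), the lowest log2 ratio of the 16 activators. Among 6 inhibitors, 1 was called, which is close to the share of 15.6% over all genes tested. It was Ppp1r13l, which encodes iASPP, with 1483 and 477 counts (-1.26, -1.41 to -1.11). Ppm1d, the phosphatase Wip1, had 712 and 394 counts (-0.48, -0.66 to -0.30). The median of the inhibitors was -0.22.

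Genes that p53 represses through p21 and the DREAM complex, which are cell cycle genes of G2 and mitosis, were 12 in number. None was called, against 15.6% of all genes tested. For 12 of 12 the interval lay inside 2-fold, and for 12 of 12 it lay above an equal ratio (53.8% and 29.2% of all genes tested). Of the 9131 genes with 1000 or more counts, 84.6% lay inside 2-fold and 3798 lay above an equal ratio. Not all of the 12 genes reached 1000 counts. Their median log2 ratio was 0.53 (0.44 to 0.57 over the settings). Birc5, the inhibitor of apoptosis survivin, was at 690 and 910 counts (0.78, 0.63 to 0.92), Mki67 at 3149 and 3527 (0.54, 0.47 to 0.61) and Cdk1 at 1386 and 1336 (0.32, 0.21 to 0.43). The log2 ratio of Cdkn1a in the same libraries was 0.00. The part of dividing cells and of the mix of tissues in these ratios was not tested.

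**Figure D5:**
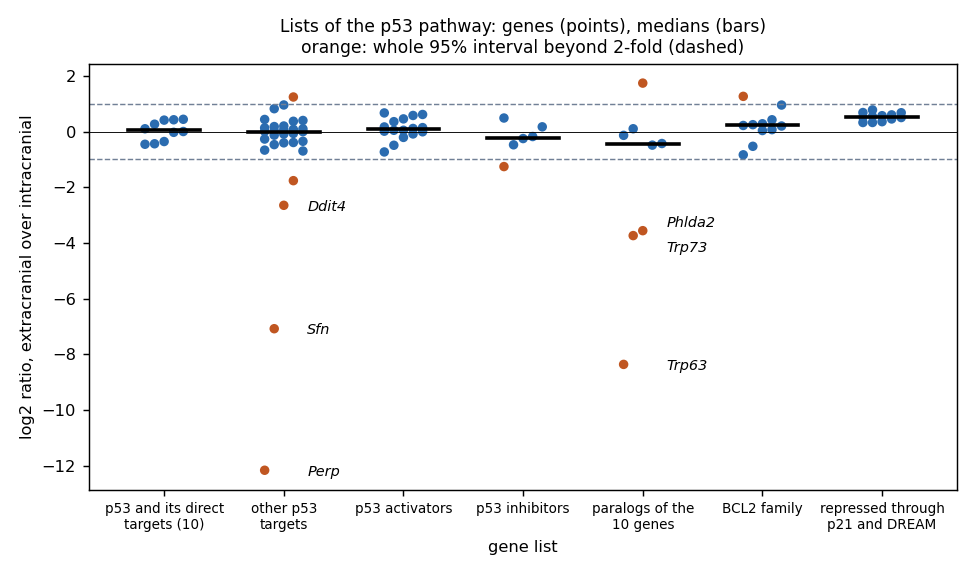
Log2 ratio, extracranial over intracranial, of each gene with 10 or more counts (points) in 7 lists of the p53 pathway, with list medians as bars, 2-fold limits dashed, and called genes in orange. The 10 genes centre on 0.05 with none called, and the genes repressed through p21 and DREAM all lie above 0, with a median of 0.53.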

How the data were processed

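Per the labels and the methods of the study, poly(A) RNA of frozen tumor was made into directional libraries and sequenced as single reads, STAR 2.7.9a (default parameters) aligned them to GRCm39 with Ensembl 104 gene models, and featureCounts counted them. The authors deposited raw read counts per Ensembl gene, without normalization, with 1 column per tumor. Strand setting and treatment of multiply aligned reads were not given in the sources used here, so counts of copies and overlapping genes are uncertain. Symbols and exon lengths came from GENCODE mouse release 21, which gave a symbol for 52083 of 55416 IDs. IDs without one held 0.760% and 1.04% of counts and stayed in library sizes.

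Libraries were scaled by the trimmed mean of M-values (TMM) in edgeR 4.0.16 (R 4.3.3; factors 1.006 and 0.994). Levels have exact Clopper-Pearson intervals and ratios conditional exact binomial intervals (95%, scipy 1.17.1). Reads carry no molecular identifiers, so these and the floor of 3 counts cover counting error only. For ratios, counts of 3 or fewer were set to 3. The procedure was tested on simulated counts that held counting error only, so that test does not cover spread between tumors. Named were the 10 genes, Smarcb1, and genes of 6 further p53 pathway lists; Krt5, Cd163 and Sox10 are from the cell type lists, with Cd163 and Sox10 named after their values were seen. Members and lists were chosen with earlier results of these data known. Alternatives were other scalings, filters and call rules, a prior count of 2, other gene lengths and added pseudogene counts.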

Additional observations from a re-analysis of the deposited data

How the results depend on the processing

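No paired analysis was possible because there was only 1 tumor per location, and for the same reason no library could be left out. The count of 0 of 10 genes called stayed at 0 under the 4 other scalings and the filters at any, 100 and 1000 counts. It also did with the ratio alone and with an interval beyond 4-fold (7.19% of all genes tested). These settings could not have changed it. The fewest counts of the 10 were 1254 (Bbc3), and no ratio reached 2-fold. The interval bounds, from -0.56 to 0.57 on the log2 scale, lay further from 2-fold than any scaling shifted them. An interval beyond 1-fold gave 8, since it admits any difference past counting error. Over the whole table, 3434 genes were called. A 4-fold limit gave 1581, a 1-fold limit 13500, the ratio beyond 2-fold without an interval 6063, the edgeR exact test 1463, and genes with 1000 or more counts 1060, the last because fewer genes were tested. Scalings by DESeq2 (version 1.42.0), total counts and the upper quartile shifted all log2 ratios by -0.02 to 0.04. Library totals without the 536 genes beyond 16-fold, a choice made after seeing the data like the pseudogene counts, the transcript lengths, the filter at 1000 counts and the median without Perp and Sfn, shifted them by -0.09. The median log2 ratio of the 10 genes (p53 and its direct targets) then became -0.040, so its sign depended on the scaling. Of the 8 genes whose interval excluded an equal ratio, 7 did so under every scaling; Phlda3 did not with total counts or with the totals without far genes (0.01), where Cdkn1a (-0.09) and Ccng1 (-0.12) did. Ranks by level depended on the length used and changed in 26 of 40 comparisons; Cdkn1a stayed first in all of them.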
